A study of Mus musculus with 12 samples.

Results

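Stop codon peaks are the m6A peaks of E12.5 mouse limb buds that the authors' peak lists annotate as lying on a stop codon. They were taken as every peak with that annotation in either list, with no filter on enrichment. The cKO list held 7106 of them among 46758 peaks (15.2%), and the cHet list held 7793 among 41196 peaks (18.9%). Together they made 14899 of 87954 peaks. They fell on 7041 genes in the cKO list, 7729 genes in the cHet list and 8517 genes in either list. Of these genes, 6253 (73.4%) had a stop codon peak in both lists, 788 (9.25%) in the cKO list only and 1476 (17.3%) in the cHet list only.

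The cKO limb buds carried 2 floxed copies of Mettl14 (labelled flox/flox), the conditional knockout. The cHet limb buds carried 1 floxed and 1 wild-type copy (wt/flox) and served as the control, so a floxed copy was common to both genotypes. Each genotype had 3 biological replicates, and from each replicate total RNA was sequenced once as input and once after immunoprecipitation with an antibody against m6A (IP), 12 libraries in all. The labels name neither the Cre line that recombined the floxed copies nor the cells in which it was active, and do not say whether a replicate pooled embryos. Mettl14 itself had no stop codon peak in either list. Its input level was 2.67, 3.07 and 2.63 FPKM (fragments scaled to transcript length and library size) in the cKO libraries, against 5.08, 4.54 and 4.39 FPKM in the cHet libraries. The groups did not overlap, and the log2 difference was -0.58 ± 0.0791 (SE; limma adjusted p = 0.00289). In bulk tissue, here and in all input values that follow, fewer cells of a type and less RNA per cell cannot be told apart.

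N6-methyladenosine (m6A) is written into messenger RNA in the nucleus by a complex whose catalytic subunit is METTL3 and whose partner METTL14 helps to hold the RNA. In mammalian messenger RNA the mark is known to be dense around stop codons and at the start of the 3′ untranslated region, most often in the sequence core GGAC. Reader proteins of the YTH family bind the marked adenosine, and binding by YTHDF2 is known to speed the decay of the messenger.

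No genome sequence of the files' build was used here, so the stop codons themselves cannot be printed. A few stop codon peaks on short genes reached back to the gene's start, where a RefSeq table gives the sequence on GRCm38.p6. The windows of 300 bases around the RefSeq start sites that this table holds show the GGAC core where it falls inside such a peak. The 3 examples below are on genes known from limb or signalling biology, with GGAC in capitals.
Bhlha9: atcagtcagtGGACcagcagcctt
Fibin: agaggatcagGGACgctgaggagc
Nrarp: ttttgcaaagGGACgcgggtggag
The Bhlha9 stretch lies at chr11:76672483-76672506 on the plus strand. Bhlha9 encodes a transcription factor of the apical ectodermal ridge, and its stop codon peak had a log2 enrichment of 4.54 in the cKO list and 4.46 in the cHet list. The Fibin stretch lies at chr2:110362966-110362989 on the minus strand. Fibin encodes a secreted factor named for its role in zebrafish fin bud initiation, and its peak had a log2 enrichment of 2.40 in the cKO list and 3.48 in the cHet list. The Nrarp stretch lies at chr2:25180764-25180787 on the plus strand. Nrarp encodes a feedback inhibitor of Notch signalling, and its peak had 2.21 in the cKO list and 2.15 in the cHet list. GGAC stands on the transcript strand in 65.6% of all 32851 windows of the table, so its presence in one of them is a description and marks no methylated site. In the last 50 bases of the windows, after the start site, where the 3 examples have their GGAC, that share was 18.9%.

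Each peak carries the authors' log2 fold enrichment of IP over input, called its enrichment here. Stop codon peaks had the highest median enrichment of all annotations in both lists, and their enrichment was lower in the cKO list. Their median was 2.04 in the cKO list (quartiles 1.61 and 2.5) and 2.66 in the cHet list (quartiles 2.04 and 3.19). An enrichment of at least 3 was reached by 9.86% of stop codon peaks in the cKO list and by 34.6% in the cHet list. Peaks in 3′ UTRs had a median of 1.49 in the cKO list and 1.62 in the cHet list. Peaks on start codons had a median of 1.68 in the cKO list and 1.92 in the cHet list. Peaks on exons of noncoding RNA came closest, with a median of 1.92 in the cKO list and 2.28 in the cHet list. An enrichment of at least 3 was reached by 13.6% of them in the cKO list, more than of stop codon peaks, and by 28.3% in the cHet list. The median was lower in the cKO list for every annotation. With 1 list per genotype, the spread between replicates of an enrichment is not known, so none of these differences between lists has a test. No source used here gives the scaling of IP to input, so the level of a whole list cannot be set against the other list apart from such scaling.

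**Figure D1:**
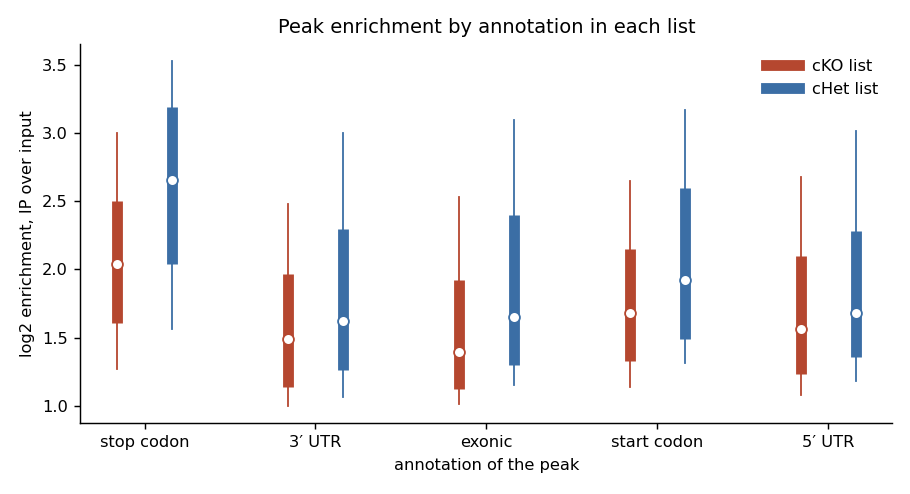
Log2 enrichment of IP over input (y axis) of the peaks of 5 annotations (x axis) in the cKO list (red, left of each pair) and the cHet list (blue, right). Peaks in introns and on exons of noncoding RNA are not drawn. Circles are medians, thick bars the quartiles and thin lines the 10th to 90th percentiles over peaks; the stop codon medians were 2.04 in the cKO list and 2.66 in the cHet list.

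Most stop codon peaks were found in both lists, but less strongly enriched in the cKO list. Of the cKO stop codon peaks, 6290 (88.5%) overlapped a cHet stop codon peak of the same gene by at least 1 base. Of the cHet stop codon peaks, 6281 (80.6%) overlapped a cKO stop codon peak. Matching each peak to 1 partner gave 6276 pairs, with a median enrichment of 2.08 in the cKO list and 2.72 in the cHet list. The median difference, cKO minus cHet, was -0.54 (quartiles -1.03 and -0.01). In 75.5% of the pairs the cKO peak was the lower one, against 58.5% of the 30554 matched pairs of any annotation. It was lower by at least 1, which is 2-fold, in 26.5% of stop codon pairs, against 13.6% of pairs of any annotation. It was higher by at least 1 in 0.558%, which is 35 pairs, against 1.13% of pairs of any annotation.

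The decrease was largest where the cHet enrichment was high. Over 4 bins of 1569 pairs ordered by cHet enrichment, the medians were 1.66 in cKO and 1.75 in cHet in the lowest bin. They were 2.00 in cKO and 2.45 in cHet in the next bin, and 2.18 in cKO and 2.99 in cHet in the one after it. In the highest bin they were 2.48 in cKO and 3.5 in cHet. Peaks ordered by 1 of 2 measured values draw together in the other, and the part of this in the gradient was not tested. At the same cHet enrichment, the other annotations came close to stop codon pairs at high levels and differed less between lists at some lower ones. Between 3.0 and 3.5 in the cHet list, the median difference was -0.93 for 1561 stop codon pairs, -0.90 for 850 pairs in 3′ UTRs, -0.82 for 448 exonic pairs and -0.87 for 284 start codon pairs. Between 1.5 and 2.0 it was -0.03 for 868 stop codon pairs, -0.01 for 2907 pairs in 3′ UTRs, 0.05 for 1048 exonic pairs and 0.10 for 812 start codon pairs. Start codon pairs stood farthest from stop codon pairs between 2.0 and 2.5, with -0.30 for stop codon pairs and 0.01 for start codon pairs, and between 2.5 and 3.0, with -0.66 for stop codon pairs and -0.45 for start codon pairs. Over all levels the median difference was -0.54 for stop codon pairs, -0.05 in 3′ UTRs and 0.01 on start codons, and the median cHet enrichment of the stop codon pairs, 2.72, stood above the 1.71 of the pairs in 3′ UTRs.

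**Figure D2:**
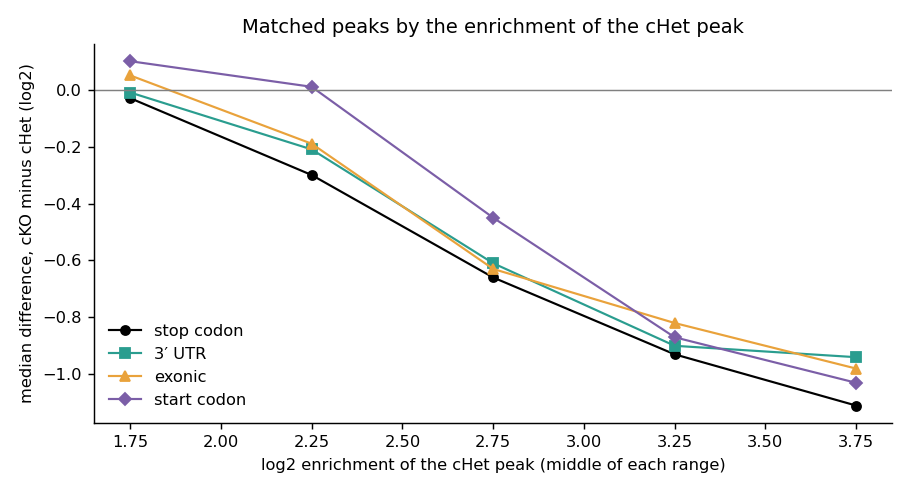
Median difference in log2 enrichment, cKO minus cHet (y axis), of matched peaks within ranges of the cHet enrichment (x axis), for stop codon, 3′ UTR, exonic and start codon peaks. At 3.0 to 3.5 the 4 medians lay between -0.93 and -0.82, and the stop codon median at 1.5 to 2.0 was -0.03.

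Stop codon peaks also stood out less from the other peaks of their own gene in the cKO list. Among genes with a stop codon peak and another peak in the same list, the stop codon peak was the highest in 2959 of 5669 genes (52.2%) in the cKO list and in 3762 of 5753 genes (65.4%) in the cHet list. It exceeded the highest 3′ UTR peak of its gene in 58.7% of 3619 genes in the cKO list, by a median of 0.17. In the cHet list it did so in 75.8% of 3551 genes, by a median of 0.71. This comparison is made within 1 list, so a scaling common to all peaks of a list does not enter it.

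The matched peaks covered shorter stretches in the cKO list, mainly at their 3′ side. Spans are the outer bounds in the genome and include introns. The median span was 2025 bases in the cKO list and 2539 bases in the cHet list, and the cKO peak was the shorter one in 50.7% of pairs and the longer one in 36.8%. The 3′ bound of the cKO peak lay inside the cHet peak in 40.2% of pairs and beyond it in 15.2%. At the 5′ bound these shares were 40.5% and 36.9%. A cKO stop codon peak was overlapped by at least 2 cHet peaks of its gene in 679 cases (9.56%), and a cHet stop codon peak by at least 2 cKO peaks in 1323 cases (17.0%).

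Of the 1512 cHet stop codon peaks with no overlapping cKO stop codon peak in their gene, 1062 overlapped a cKO peak of another annotation of the same gene. Among these 1062, 902 overlapped a 3′ UTR peak, 221 an exonic one and 97 a start codon one. No cHet peak of any kind overlapped 240 cKO stop codon peaks (3.38%), and no cKO peak of any kind overlapped 437 cHet stop codon peaks (5.61%). Msx1, a homeobox factor of the distal limb mesenchyme, had 1 cKO peak at chr5:37820485-37820959 (mm10, minus strand), annotated to the 3′ UTR with an enrichment of 2.04. In the cHet list its peak at chr5:37820485-37821409 had the stop codon annotation and an enrichment of 3.87. Both peaks end at the same 3′ bound, and the cHet peak reaches farther upstream. Hoxd13, the most distal Hox gene of its cluster, had cKO peaks of 2.26 (exonic) and 0.89 (3′ UTR) where the cHet list held 1 stop codon peak of 3.16 at chr2:74668310-74670666. Gli3, a transcription factor of Hedgehog signalling, had cKO exonic peaks of 1.38 and 1.90 within the bounds of a cHet stop codon peak of 3.18 at chr13:15663355-15727162.

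Gdf5, a BMP family ligand of joint interzones and early cartilage, showed the same division. Its cKO stop codon peak lay at chr2:155941023-155942222 (minus strand) with an enrichment of 2.76, beside a separate start codon peak at chr2:155942348-155945367 with 1.67. In the cHet list 1 stop codon peak of 4.05 at chr2:155941023-155945367 covered the stretch of both. The input level of Gdf5 was 18.8, 17.0 and 15.7 FPKM in the cKO libraries, against 20.3, 20.7 and 24.3 FPKM in the cHet libraries. The groups did not overlap, with a log2 difference of -0.32 ± 0.0944 (SE; limma adjusted p = 0.0363), a call that was lost in 8 of 16 alternative settings.

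The largest decreases on genes of at least 5 FPKM were between -2.49 and -2.2. Cdh11, a cadherin of mesenchymal cells, had an enrichment of 1.28 in the cKO list and 3.76 in the cHet list. Nxt1, a cofactor of messenger RNA export, had 1.71 in the cKO list and 4.06 in the cHet list. Dact1, a regulator of Wnt signalling, had 1.1 in the cKO list and 3.55 in the cHet list. Has2, the main hyaluronan synthase of limb mesenchyme, had 1.33 in the cKO list and 3.57 in the cHet list, and Pdgfrb, a receptor of mesenchymal and perivascular cells, had 1.32 in the cKO list and 3.52 in the cHet list. Urgcp, Tmem119 and Dipk2a completed the 8, with differences of -2.34, -2.27 and -2.27. In several of the 8, a higher cKO peak of another annotation also overlapped the cHet stop codon peak. These cKO peaks had 2.5 (start codon) in Has2, 2.21 (exonic) in Dact1 and 2.19 (exonic) in Urgcp. In Tmem119 and Pdgfrb they were 3′ UTR peaks of 2.27 and 1.78. In Cdh11, Nxt1 and Dipk2a the stop codon peak was the highest overlapping cKO peak.

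Increases were fewer and smaller. Srp54b, which encodes a copy of a signal recognition particle subunit, had 4.02 in the cKO list and 1.72 in the cHet list, but it has near-identical copies in the mouse genome and how reads shared between copies were counted is not given. Eif2s2, a subunit of a translation initiation factor, had 2.56 in the cKO list and 1.35 in the cHet list. Fam50a, Rpl35a, Dnajc17, Ccdc124 and Scnm1 had increases between 0.96 and 1.55.

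The highest enrichments on genes of at least 5 FPKM were elsewhere. Gapdh, with 4.66 in the cKO list and 4.20 in the cHet list, led the cKO list at that level, and Rpl30, with 4.63 in the cKO list and 5.24 in the cHet list, led the cHet list. Both have many processed pseudogenes, so their values are uncertain. Among the next genes, the cHet enrichment was higher for Sac3d1 (2.81 in cKO, 4.34 in cHet), Ptrh2 (2.98 in cKO, 4.30 in cHet) and Lrig3 (2.02 in cKO, 4.19 in cHet). It was close in both lists for Fam171a2 (4.06 in cKO, 4.23 in cHet). The cKO enrichment was the higher one for Pdgfa, a growth factor made by epithelia (4.14 in cKO, 3.75 in cHet). The same held for Sfn, a 14-3-3 protein of keratinocytes (3.85 in cKO, 3.42 in cHet), and for Kremen2, a regulator of Wnt signalling (3.92 in cKO, 3.49 in cHet).

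The size of the change divided by the cell type in which a gene is known to be expressed. Markers of limb mesenchyme had lower stop codon enrichment in the cKO list, whereas markers of muscle, endothelium, blood, macrophages and epidermis mostly had slightly higher enrichment. Schwann and neural crest markers were split, with 2 of the 4 found in both lists lower in cKO and a median difference of 0.17. Of 13 limb mesenchyme markers, 12 had a stop codon peak, 7 in both lists, 5 in the cHet list only and 0 in the cKO list only. All 7 in both lists were lower in cKO, with a median difference of -1.60 and a range of -1.75 to -0.91. Over all 6239 genes of the expression table with a stop codon peak in both lists the median was -0.54, and 75.6% were lower in cKO. The 7 mesenchyme markers all had a cHet enrichment of at least 2.5. Over the 3779 genes of that range the median was -0.86, and 86.8% were lower. Of 67 markers of the 6 other cell types, 37 had a stop codon peak in both lists, 12 in the cKO list only and 2 in the cHet list only. Among those 37, 4 were lower in cKO and 33 higher, with a median of 0.28 and a range of -0.80 to 0.62.

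Twist1, a basic helix-loop-helix factor of limb mesenchyme, had an enrichment of 2.13 in the cKO list and 3.88 in the cHet list. Pdgfra, a growth factor receptor of mesenchymal cells, had 1.55 in the cKO list and 3.15 in the cHet list. Sox9, the master regulator of cartilage, had 2.00 in the cKO list and 3.21 in the cHet list, and Hoxa13, a patterning gene of the autopod, had 1.67 in the cKO list and 3.39 in the cHet list. All 4 peaks were more than 2-fold lower in cKO. The other 5 mesenchyme markers, Msx1, Hoxd13, Shox2, Prrx2 and Lhx9, had a stop codon peak in the cHet list alone. Tendon markers, from cells of the same mesenchyme, were lower in 3 of 3 genes with a median of -1.11, among them Scx with 2.04 in the cKO list and 3.41 in the cHet list.

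In the epidermis, Krt14, a basal keratin, had 1.80 in the cKO list and 1.30 in the cHet list. Sp8, a factor of the limb ectoderm, had 3.46 in the cKO list and 2.98 in the cHet list, and Wnt7a, the dorsal ectodermal signal, had 3.42 in the cKO list and 3.24 in the cHet list. None of the 9 epidermal markers with a peak in both lists was lower in cKO, and their median difference was 0.28. In endothelium, Cdh5, the cadherin of vessel junctions, had 3.43 in the cKO list and 3.10 in the cHet list, and Cldn5, a tight junction protein of vessels, had 3.97 in the cKO list and 3.83 in the cHet list. Of 8 endothelial markers 1 was lower, the transcription factor Erg with 3.00 in the cKO list and 3.67 in the cHet list. Among blood and immune genes, Klf1, the erythroid transcription factor, had 3.89 in the cKO list and 3.74 in the cHet list, and C1qb, a complement chain of macrophages, had 3.28 in the cKO list and 3.00 in the cHet list. The muscle genes Myf5, Myh3, Tnnt1 and Tnnt2 were all higher in cKO, with a median of 0.28. The largest decrease among the markers of the 6 other cell types was in Ngfr, the nerve growth factor receptor used as a neural crest marker, with 2.39 in the cKO list and 3.18 in the cHet list.

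The contrast was not confined to weak peaks. At a cHet enrichment of at least 2.5, the other markers had a median difference of 0.19 over 18 genes, 4 of them lower, against -0.86 and 86.8% lower over 3779 genes of the same range. The 55 matched peaks of other annotations on these marker genes had a median difference of 0.20 and were lower in 27.3%. For limb mesenchyme markers, 24 matched peaks of other annotations had a median of -0.09 and were lower in 58.3%, close to the -0.05 and 54.1% of all 24278 such pairs. Fewer marked transcripts per cell and fewer cells with marked transcripts cannot be told apart in bulk tissue, and in which cells Mettl14 was recombined was not measured. The summed input level of the limb mesenchyme markers was 702, 773 and 798 FPKM in the cKO libraries, against 637, 622 and 624 FPKM in the cHet libraries. That of epidermal markers was 228, 220 and 216 FPKM in the cKO libraries, against 186, 205 and 207 FPKM in the cHet libraries. Endothelial markers summed to 76.9, 70.7 and 74.6 FPKM in the cKO libraries, against 79.1, 89.1 and 86.1 FPKM in the cHet libraries. The mesenchymal and epidermal sums were thus higher and the endothelial and muscle sums lower in every cKO library, while the erythroid, macrophage and Schwann and neural crest sums overlapped between genotypes. The tendon sum, 46.8, 37.7 and 40.8 FPKM in the cKO libraries against 57.6, 63.6 and 63.3 FPKM in the cHet libraries, was lower in every cKO library, opposite to the mesenchymal sum. Muscle markers summed to 488, 331 and 309 FPKM in the cKO libraries, against 504, 524 and 557 FPKM in the cHet libraries, and Schwann and neural crest markers to 28.9, 28.1 and 27.3 FPKM in the cKO libraries, against 27.4, 29.3 and 32.3 FPKM in the cHet libraries. Erythroid markers varied most between libraries, at 5780, 7080 and 13000 FPKM in cKO and 7380, 10300 and 8790 FPKM in cHet, and macrophage markers summed to 43.3, 40.3 and 36.6 FPKM in cKO and 33.6, 37.8 and 43.0 FPKM in cHet. The part of these input levels in the enrichment differences was not tested.

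**Figure D3:**
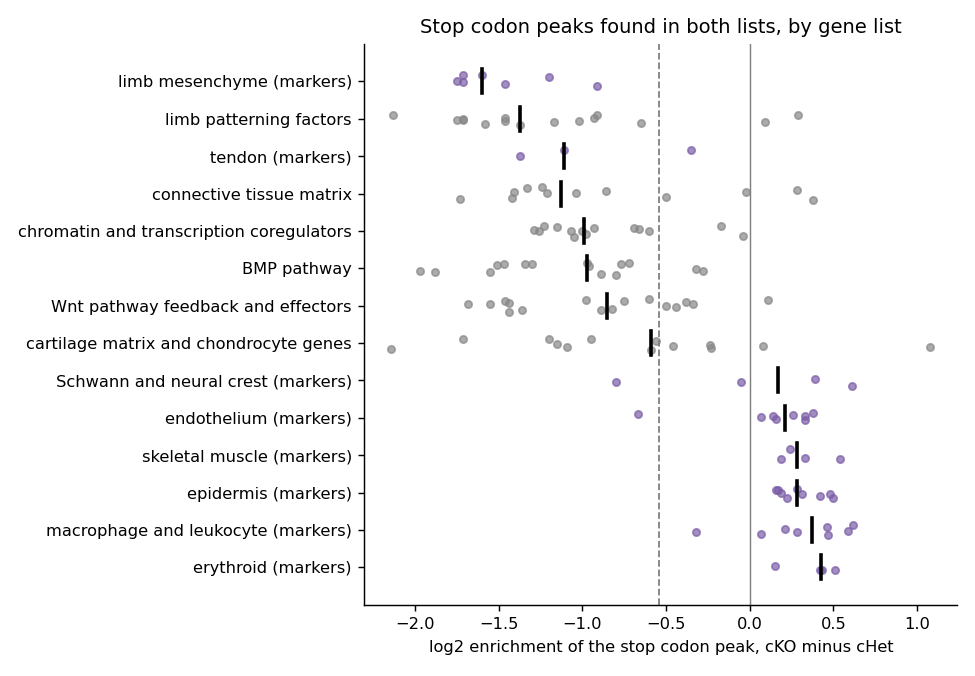
Difference in log2 enrichment of the highest stop codon peak of each gene, cKO minus cHet (x axis), for genes with a stop codon peak in both lists. Each point is a gene of the list on the y axis, the thick line is the median of the list, the solid line marks 0 and the dashed line the median of all matched stop codon pairs, -0.54; cell type marker lists are purple. The 7 limb mesenchyme markers lie between -1.75 and -0.91, and the medians of the 6 other marker lists at the bottom lie between 0.17 and 0.42.

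The genes with a stop codon peak were then followed in the input RNA, where 3 cKO and 3 cHet libraries allow a test. Of 8501 such genes in the expression table, 6999 had a mean of at least 1 FPKM and were tested within a fit over all 13575 genes of that level. Higher levels in cKO were called for 1678 of them (24.0%), against 18.7% of all genes tested, and lower levels for 1164 (16.6%), against 17.5% of all genes tested. The median log2 change was 0.04. In both directions together, 36.2% of all genes tested were called. Genes with peaks of other annotations only were called higher in 792 of 5384 cases (14.7%) and lower in 1008 (18.7%). Genes without any peak were called higher in 65 of 1192 cases (5.45%) and lower in 205 (17.2%).

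The direction of the calls differed between genes by the list that held their peak. Each list measures IP over the input of its own genotype, so list membership and the input change share libraries. An error that raises the measured cKO input, with the IP unchanged, lowers the cKO enrichment. The part of this in the split between the classes was not tested. Genes with a stop codon peak in the cHet list only were called higher in cKO in 313 of 1092 cases (28.7%) and lower in 112 (10.3%), with a median change of 0.09. Genes with one in the cKO list only were called higher in 79 of 592 cases (13.3%) and lower in 181 (30.6%), with a median of -0.10. With the same FPKM sum in each library, the genes of the cKO list only split into 125 higher and 114 lower. Their lower calls then no longer outnumbered the higher ones. All genes tested moved too under this scaling, to 3898 higher and 1390 lower. Beside all genes, the genes of the cKO list only thus still leaned to lower calls. Genes with one in both lists were called higher in 1286 of 5315 cases (24.2%) and lower in 871 (16.4%). The median input level over tested genes was 7.27 to 7.54 FPKM in cKO libraries and 6.63 to 6.82 FPKM in cHet libraries for the cHet list only. It was 7.96 to 8.08 FPKM in cKO and 7.59 to 8.31 FPKM in cHet libraries for the cKO list only, and 7.44 to 7.75 FPKM in cKO and 7.01 to 7.04 FPKM in cHet libraries for both lists.

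Strongly marked genes were those most often higher in cKO. In the highest bin of cHet enrichment (3.15 to 5.24), 675 of 1602 genes (42.1%) were called higher and 146 (9.11%) lower, with a median change of 0.20. In the lowest bin (0.70 to 2.01), 190 of 1602 genes (11.9%) were called higher and 384 (24.0%) lower, with a median of -0.05. The enrichment and the input change share the cHet input libraries, so that an error in that input moves both in the same sense. By cKO enrichment, which shares the cKO input and errs in the opposite sense, the share called higher was 21.3%, 26.7%, 27.4% and 17.0% from the lowest to the highest bin. The gradient over cHet bins was present within ranges of input level. Between 10 and 30 FPKM, 10.9% of genes were called higher in the lowest bin and 53.5% in the highest. Between 1 and 3 FPKM these shares were 11.4% and 27.1%. Above 30 FPKM, 48.2% of the lowest bin were called lower, against 12.3% of the highest. After scaling all libraries to the same FPKM sum, which moved the median of all genes by 0.11, the medians were 0.31 in the highest bin and 0.06 in the lowest, and calls on all stop codon genes then split into 2475 higher and 680 lower. With each library centred on its median they split into 1509 higher and 1407 lower, against 1678 and 1164 as deposited.

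**Figure D4:**
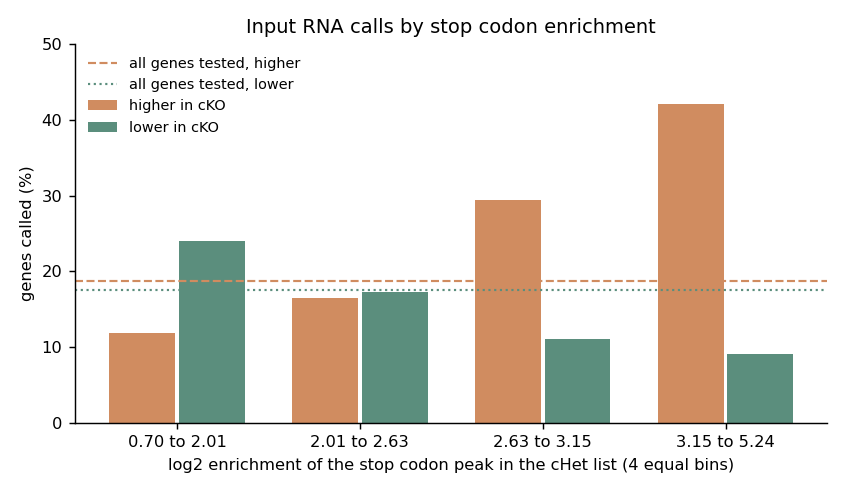
Percent of tested genes called higher (orange) or lower (green) in cKO input RNA at a limma adjusted p under 0.05 (y axis), over 4 equal bins of the stop codon enrichment in the cHet list (x axis). Horizontal lines give the shares over all genes tested, 18.7% higher and 17.5% lower; 42.1% of the highest bin and 11.9% of the lowest were called higher.

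The genes that rose most among those with a stop codon peak included nuclear regulators with high cHet enrichment. In each gene named for its rise or fall the 3 libraries of one genotype stood apart from the 3 of the other, as they did in 51.2% of all genes tested in either direction. Inka1, an inhibitor of a p21-activated kinase, had 67.7, 62.8 and 59.3 FPKM in the cKO libraries, against 19.1, 20.6 and 20.1 FPKM in the cHet libraries. Every cKO library was above every cHet library, with a log2 change of 1.62 ± 0.0671 (SE; limma adjusted p = 0.00031). Its stop codon peak had an enrichment of 1.31 in the cKO list, in a stretch of chr9:107984223-107984472, and of 3.49 in the cHet list, over chr9:107984223-107985873. Zfp292, a zinc finger protein, had 40.6, 48.7 and 54.8 FPKM in the cKO libraries, against 16.7, 11.1 and 10.9 FPKM in the cHet libraries (log2 change 1.83 ± 0.178 SE, limma adjusted p = 0.00115). Its enrichment was 2.49 in the cKO list and 3.65 in the cHet list. Bcl9l, a coactivator of beta-catenin, had 22.9, 24.8 and 25.5 FPKM in the cKO libraries, against 5.80, 7.45 and 10.2 FPKM in the cHet libraries (log2 change 1.55 ± 0.171 SE, limma adjusted p = 0.00167), with a stop codon peak of 3.29 in the cHet list only. Exo1, an exonuclease of DNA repair, rose by 1.58, Ahdc1, a DNA-binding protein, by 1.45, Prr12, a proline-rich nuclear protein, by 1.43, and Med18, a subunit of Mediator, by 1.39. Exceptions to high cHet enrichment included Tstd1 (1.89 in cHet, up by 1.74) and Il18bp, the binding protein of interleukin 18 (1.34 in cHet, up by 1.53).

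Of the 8 genes with the largest decrease in enrichment, 4 rose in the input RNA, against 18.7% of all genes tested. All 8 had a cHet enrichment within the highest bin (3.15 to 5.24), where 42.1% of genes were called higher. An error that raises the measured cKO input lowers the cKO enrichment by which these 8 were chosen, so the count is a description. Nxt1 had 49.9, 46.3 and 48.8 FPKM in the cKO libraries, against 20.0, 17.9 and 18.3 FPKM in the cHet libraries (log2 change 1.32 ± 0.0636 SE, limma adjusted p = 0.00031). Cdh11 had 113, 117 and 128 FPKM in the cKO libraries, against 71.3, 65.9 and 60.6 FPKM in the cHet libraries (log2 change 0.85 ± 0.0824 SE, limma adjusted p = 0.00115). Urgcp and Dipk2a also rose, by 0.72 and 0.87, whereas Dact1, Tmem119, Has2 and Pdgfrb, with changes of 0.17 to 0.28, did not pass the test. Lower stop codon enrichment was found with and without a called change of the messenger.

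The genes that fell most included genes of cartilage and connective tissue matrix. Papss2, an enzyme that supplies activated sulfate to proteoglycans, had 6.25, 5.99 and 5.18 FPKM in the cKO libraries, against 24.8, 22.4 and 22.7 FPKM in the cHet libraries (log2 change -1.84 ± 0.0795 SE, limma adjusted p = 0.00031). Its stop codon peak, in the cHet list only, had an enrichment of 1.61. Lum, the matrix proteoglycan lumican, had 41.9, 28.9 and 34.3 FPKM in the cKO libraries, against 92.7, 105 and 86.7 FPKM in the cHet libraries (log2 change -1.42 ± 0.139 SE, limma adjusted p = 0.00116). Its cHet stop codon peak had 2.74. Kera, its relative keratocan, fell by 1.62 and had a cHet stop codon peak of 3.28. Mia, a small secreted protein of cartilage, fell by 1.94, the proteoglycan gene Epyc by 1.55, the proteoglycan gene Aspn by 1.64 and Matn1, a cartilage matrix protein, by 1.44. Otor, a relative of Mia, Gng3, a G protein subunit, and Col8a2, a short-chain collagen, completed the 10. The enrichments of Mia and Epyc (1.52 and 1.86, cKO list only), Aspn (1.05 in cKO, 1.07 in cHet) and Matn1 (1.61, cHet list only) were in the lower part of the range of stop codon peaks.

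**Figure D5:**
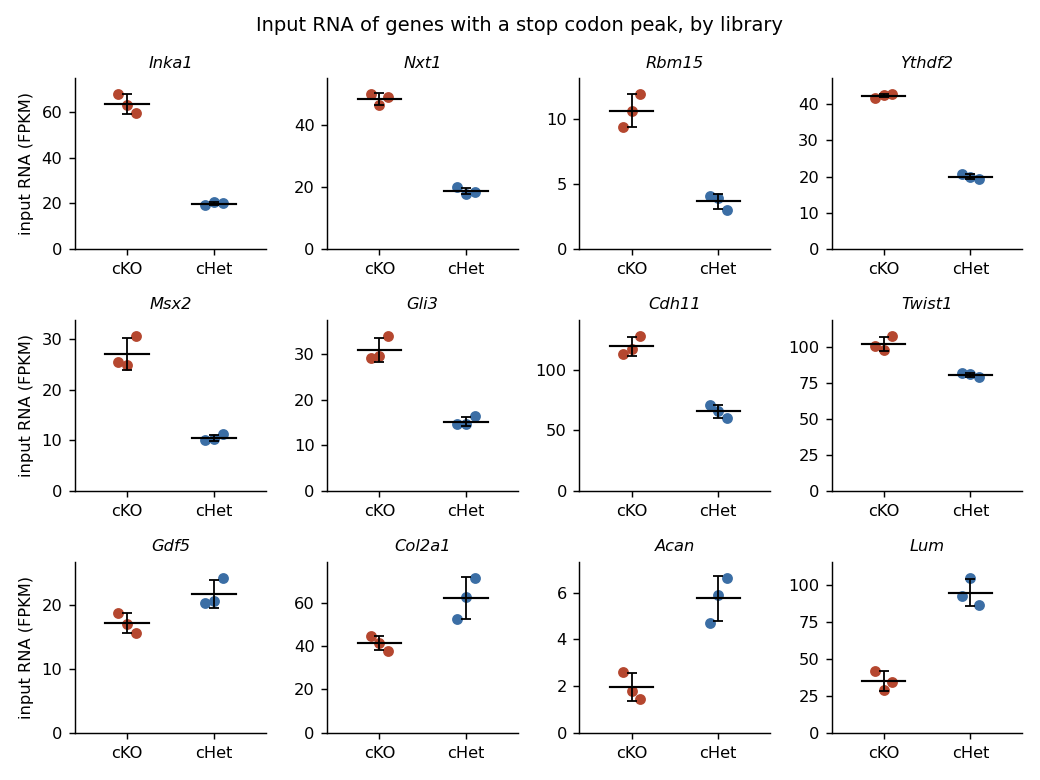
Input RNA in FPKM (y axes, each from 0) of 12 genes with a stop codon peak, in the 3 cKO libraries (red, left) and the 3 cHet libraries (blue, right). Points are libraries, horizontal lines means and error bars the SD (n = 3 each). The 3 cKO values of Inka1 (59.3 to 67.7) all lie above its cHet values (19.1 to 20.6), and those of Lum (28.9 to 41.9) below its cHet values (86.7 to 105).

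The m6A machinery carried stop codon peaks of its own. Of 11 writer genes, 7 had one, 6 in both lists, and 5 of these 6 were lower in cKO with a median difference of -1.12. Over all genes with both peaks, 75.6% were lower and the median was -0.54. At a cHet enrichment of at least 2.5 these values were 86.8% and -0.86, over 3779 genes. The gene lists here and below were not matched for cHet enrichment. Virma, the scaffold of the writer complex, had 1.28 in the cKO list and 2.90 in the cHet list. Zc3h13, which helps to hold the complex in the nucleus, had 1.46 in the cKO list and 3.24 in the cHet list. In both genes a cKO start codon peak also overlapped the cHet stop codon peak, with 2.2 in Virma and 3.12 in Zc3h13. The cKO list thus held an enrichment near the cHet value within the bounds of the Zc3h13 peak. Rbm15, which guides the complex to RNA, had a stop codon peak in the cHet list only (2.40), and the cKO list held 3′ UTR peaks of 1.04 and 1.62 within its bounds. Its input level was 9.36, 10.6 and 11.9 FPKM in the cKO libraries, against 4.07, 3.92 and 3.02 FPKM in the cHet libraries (log2 change 1.32 ± 0.118 SE, limma adjusted p = 0.000936). Of the 7 writer genes with a stop codon peak, 5 rose, namely Virma, Zc3h13, Cbll1, Rbm15 and Rbm15b. Mettl5, the methyltransferase of 18S ribosomal RNA, fell by 0.30. Over all tested genes with a stop codon peak, 24.0% were called higher and 16.6% lower.

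Among the readers, the YTHDF genes had lower stop codon enrichment in cKO. Ythdf2, the reader known for messenger decay, had 1.69 in the cKO list and 3.38 in the cHet list, and 41.7, 42.3 and 42.7 FPKM in the cKO libraries, against 20.8, 19.8 and 19.3 FPKM in the cHet libraries (log2 change 1.05 ± 0.0526 SE, limma adjusted p = 0.000352). Ythdf1 had a stop codon peak of 3.10 in the cHet list only, with an exonic cKO peak of 1.26 overlapping it, and rose by 0.76. Ythdf3 had 2.32 in the cKO list and 3.48 in the cHet list, with an input change of 0.27 that was not called. Igf2bp3, which encodes a reader of the IGF2BP family, had 2.12 in the cKO list and 2.69 in the cHet list. The differences were smaller for Igf2bp1 (1.34 in cKO, 1.54 in cHet) and for Hnrnpa2b1, which encodes an hnRNP protein (2.81 in cKO, 2.74 in cHet). Over the 9 reader and eraser genes with a peak in both lists the median difference was -0.21, with 6 of 9 lower in cKO. Beside these stand the -0.54 and 75.6% of all genes with both peaks. Of the 11 with a stop codon peak in either list, 3 rose and 1 fell, against 24.0% higher and 16.6% lower over all tested genes with such a peak.

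Transcription factors that pattern the limb had lower stop codon enrichment in cKO, and many of their messengers rose. Of 35 such genes, 31 had a stop codon peak, 15 in both lists, 14 in the cHet list only and 2 in the cKO list only, whereas 17.3% of all genes with such a peak had one in the cHet list only. In the 15 genes the median difference was -1.37, with 13 lower in cKO, against -0.54 and 75.6% lower over all genes with both peaks. Genes with a cHet enrichment of at least 2.5 had -0.86 and 86.8%. In the input RNA 17 of 29 tested rose and 1, Hoxd12, fell, against 24.0% higher and 16.6% lower over all tested genes with a stop codon peak. Msx2, a homeobox factor and BMP target, had 2.12 in the cKO list and 3.70 in the cHet list, with 25.5, 24.9 and 30.6 FPKM in the cKO libraries, against 10.1, 10.2 and 11.2 FPKM in the cHet libraries (log2 change 1.28 ± 0.0905 SE, limma adjusted p = 0.000593). Tbx5, the forelimb T-box factor, had 2.03 in the cKO list and 3.05 in the cHet list and rose by 0.49. En1 and Irx3 were the 2 of the 15 that were not lower. En1, a factor of ventral ectoderm, had 3.69 in the cKO list and 3.60 in the cHet list, and Irx3, an Iroquois factor, had 2.34 in the cKO list and 2.05 in the cHet list.

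In the BMP pathway, all 15 genes with a stop codon peak in both lists were lower in cKO, with a median of -0.97. For all genes with both peaks these values were 75.6% and -0.54. All of the 15 except Id4 (1.84) had a cHet enrichment of at least 2.5. Over all genes of that range 86.8% were lower, with a median of -0.86, near the values of this list. Among ligands, Bmp4 had 2.35 in the cKO list and 3.90 in the cHet list, and Gdf6 had 1.81 in the cKO list and 3.69 in the cHet list. The receptor gene Acvr2b had 2.40 in the cKO list and 3.37 in the cHet list and its messenger rose by 1.00. Of the inhibitors, Smad7 had 1.06 in the cKO list and 3.03 in the cHet list and rose by 1.18, the decoy receptor gene Bambi had 2.24 in the cKO list and 3.75 in the cHet list and rose by 0.95, and Nog, which encodes the antagonist noggin, had 2.29 in the cKO list and 3.25 in the cHet list and fell by 0.87. Of the 24 BMP genes tested, 4 rose and 5 fell, shares near the 18.7% and 17.5% of all genes tested.

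In the Wnt list, 15 of 16 genes with a peak in both lists were lower in cKO (median -0.86), against 75.6% of all such genes (median -0.54). Among such genes with a cHet enrichment of at least 2.5, 86.8% were lower (median -0.86). Of 17 tested, 10 rose and 2 fell, against 24.0% and 16.6% over all tested genes with a stop codon peak. Axin2, the feedback inhibitor, had 1.57 in the cKO list and 2.93 in the cHet list and rose by 0.78, and Bcl9 had 1.52 in the cKO list and 3.20 in the cHet list and rose by 0.91. Dkk2, a secreted antagonist, had 1.64 in the cKO list and 3.08 in the cHet list and fell by 1.09. A cKO start codon peak of 2.97 also overlapped the cHet stop codon peak of Dkk2. Of 13 Hedgehog genes with a stop codon peak, 8 had it in the cHet list only, against 17.3% of all genes with such a peak, among them Gli3 and the cartilage ligand Ihh (3.48). Gli3 had 29.2, 29.6 and 34.0 FPKM in the cKO libraries, against 14.6, 14.6 and 16.4 FPKM in the cHet libraries (log2 change 0.98 ± 0.081 SE, limma adjusted p = 0.000795). In FGF signalling, 8 of 10 genes with both peaks were lower (median -1.20), a share near the 75.6% of all genes with both peaks (median -0.54). Fgf10, the mesenchymal ligand of limb outgrowth, had 1.69 in the cKO list and 3.00 in the cHet list, whereas the epithelial ligand Fgf8 had 1.51 in the cKO list and 1.35 in the cHet list, and Fgf9 had 3.59 in the cKO list and 3.57 in the cHet list.

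Chromatin regulators and cartilage genes had opposite calls in the input RNA, where 18.7% of all genes tested were higher and 17.5% lower. All 14 coregulator genes with both peaks were lower in cKO (median -0.99), and 14 of 20 tested rose while 0 fell in the limma fit (16 higher and 0 lower at an unadjusted p under 0.05). Of all genes with both peaks and a cHet enrichment of at least 2.5, 86.8% were lower (median -0.86). Arid1a, a subunit of the BAF complex, had 2.21 in the cKO list and 3.51 in the cHet list and rose by 1.03, and Kmt2d, a histone H3 methyltransferase, had 1.57 in the cKO list and 2.23 in the cHet list and rose by 1.21. Of the cartilage genes with both peaks, 11 of 13 were lower (median -0.59), near the 75.6% and -0.54 of all genes with both peaks, and of 18 tested with a stop codon peak 13 fell and 0 rose in the limma fit (14 lower and 1 higher at an unadjusted p under 0.05). Col2a1, the main cartilage collagen, had 1.47 in the cKO list and 3.18 in the cHet list, with 44.7, 41.5 and 37.9 FPKM in the cKO libraries, against 52.3, 62.6 and 71.5 FPKM in the cHet libraries (log2 change -0.57 ± 0.121 SE, limma adjusted p = 0.0124). Acan, the core protein of aggrecan, had 1.78 in the cKO list and 2.02 in the cHet list, with 2.62, 1.81 and 1.47 FPKM in the cKO libraries, against 4.72, 5.93 and 6.65 FPKM in the cHet libraries (log2 change -1.20 ± 0.166 SE, limma adjusted p = 0.00308). Sox9 had 24.3, 28.7 and 21.2 FPKM in the cKO libraries, against 28.0, 29.9 and 30.8 FPKM in the cHet libraries, which overlapped and did not pass the test (log2 change -0.26 ± 0.108 SE, limma adjusted p = 0.106). Sox5, Sox6 and Nkx3-2, the other early cartilage factors, differed in stop codon enrichment by -1.09, -0.95 and -2.14. Their input changes of -0.07, -0.12 and 0.36 were not called. A cKO start codon peak of 2.57 also overlapped the cHet stop codon peak of Nkx3-2, which had 3.29.

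Connective tissue matrix genes had a median difference of -1.13 over 12 genes with both peaks, 10 of them lower. All genes with both peaks had a median of -0.54, with 75.6% lower. Those with a cHet enrichment of at least 2.5 had a median of -0.86, with 86.8% lower. Of 19 matrix genes tested, 12 fell and 0 rose in the limma fit (12 lower and 0 higher at an unadjusted p under 0.05). Among all genes tested, 17.5% were called lower and 18.7% higher. Col1a2, a chain of type I collagen, had 2.19 in the cKO list and 3.24 in the cHet list and fell by 0.99. Fbn2, a microfibril protein, had 1.61 in the cKO list and 3.35 in the cHet list, and its input change of 0.00 was not called. Postn, a matrix protein of perichondrium and tendon, had 2.28 in the cKO list and 2.01 in the cHet list and fell by 1.06. Among the RUNX genes, Runx1 had 2.14 in the cKO list and 2.75 in the cHet list at an input level too low for the test, Runx3 had a stop codon peak in the cHet list only (2.09) and fell by 0.76, and Runx2 had no stop codon peak. Over the list of Gdf5, RUNX genes and their partners, 7 of 7 genes with both peaks were lower in cKO (median -1.20). Of 9 tested, 3 rose and 3 fell. The values over all genes given above, 75.6% lower with a median of -0.54 and 18.7% higher, apply here too.

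Beside the -0.54 and 75.6% lower of all genes with both peaks, and the 18.7% higher and 17.5% lower of all genes tested, the remaining lists stood as follows. Of proliferation genes with both peaks, 9 of 9 were lower in cKO (median -0.65), and of 15 tested 4 rose and 3 fell, with Mki67, the proliferation antigen, at 2.72 in the cKO list and 3.37 in the cHet list and up by 0.68. Of p53 targets with both peaks, 2 of 4 were lower (median -0.26), and of 8 tested 2 rose and 1 fell. Of imprinted and growth genes with both peaks, 3 of 4 were lower (median -0.92), and of 6 tested 1 rose and 4 fell, among them Cdkn1c, an inhibitor of the cell cycle, with 2.21 in the cKO list and 1.91 in the cHet list and a fall of 0.85. For the Hedgehog genes with both peaks, 4 of 4 were lower (median -0.57), and of 12 tested 2 rose and 2 fell. Of the 10 FGF genes tested, 4 rose and 3 fell. Among the marker lists, 6 of 12 tested mesenchyme markers rose and 1 fell, 3 of 9 epidermal markers rose and 1 fell, 2 of 9 endothelial, 2 of 6 muscle, 2 of 5 tendon and 1 of 4 Schwann and neural crest markers fell, and 0 of 6 erythroid and 0 of 7 macrophage markers were called by limma (0 also at an unadjusted p under 0.05).

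The peaks without any overlapping peak in the other list were of moderate enrichment. In the cHet list, on genes of at least 5 FPKM, they were led by Asphd2 (3.14), B3galnt1 (2.97), Ebf2 (2.55), Col6a1 (2.55), Hpse2 (2.53) and the Wnt antagonist gene Frzb (2.47). In the cKO list, at the same level, they included Zeb1 (2.14), the alpha globin gene Hba-a2 (2.02), whose near-identical copy makes it uncertain, and the splicing gene Snrpa (1.73). Of the unmatched cHet peaks so named, Asphd2, B3galnt1 and Synpo were on genes that rose, and Ebf2, Col6a1 and D430019H16Rik on genes that fell. Of the 10 from the cKO list, 3 fell (Impdh2, Selenoh and Otor) and 0 rose in the limma fit (6 lower and 0 higher at an unadjusted p under 0.05).

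The expression table held FPKM values, whose sums ran from 237287.9 to 255907.3 in cKO and from 261691.5 to 275299.5 in cHet and did not overlap. The step between low values would equal 36.7 to 40.7 M fragments per cKO library and 35.9 to 39.0 M per cHet library, if it stands for 1 fragment, an estimate that rests on 19 to 38 genes per library. Log2 values of 2 libraries correlated at 0.976 to 0.989 where they shared a genotype and at 0.950 to 0.971 where they did not. Without cHet replicate 2 the calls on genes with a stop codon peak numbered 1073 higher and 642 lower, and without cKO replicate 2 the lower calls numbered 714. The p-values measure the spread between the 3 replicates of each genotype.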

How the data were processed

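Limb buds of E12.5 cKO and cHet embryos gave 6 input and 6 IP libraries. Reads were handled with fastp and HISAT2 on mm10, per the submitters' processing notes. No source used here gives the peak caller, the program for FPKM, the handling of strand, or how replicates and IP scaling entered the lists. For the input libraries the authors deposited FPKM of 31723 genes, per the file headers. Their deposited peak lists, 1 per genotype, hold a log2 ratio of IP to input for every peak, per the file headers. Each deposited peak also carries the authors' p-value and adjusted p-value, per the file headers. IP values per library were not analysed here, and 0 columns of per-sample values were left out.

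Starts were raised by 1 to give 1-based positions: 85.8% of cKO and 86.6% of cHet peaks under 400 bases then have lengths that are multiples of 25. Peaks were matched within a gene and strand by the most shared bases, 1 to 1. Where a gene had several stop codon peaks, the highest was used for the gene. Input RNA was tested with limma 3.58.1 (R 4.3.3; lmFit and eBayes with a trend) on log2(FPKM + 1), so that fold changes understate low genes. The 13575 genes averaging 1 FPKM or more were tested, and calls had a Benjamini-Hochberg adjusted p under 0.05, two-sided. On simulated data, 100% of 100 genes changed by 1 on the log2 scale and 99% of 100 changed by 0.5 were recovered, with 9 false calls of 13575. Replicate numbers of the genotypes did not pair the samples.

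Named genes were the 10 largest rises and falls whose 3 cKO values lay beyond all 3 cHet values (51.2% of all genes tested do), the 10 highest peaks and 8 largest increases and decreases at 5 FPKM or more, the 10 highest unmatched peaks of each list, and members of 22 gene lists. Some genes that meet these rules are not reported here. The members and lists were chosen with earlier results of these data known, and the genes shown for divided peaks or sequence were chosen after their values were seen. Gene lists are described by counts and medians, with no test. Alternatives covered pseudocount, filter, scaling, prior, replicate block, omitted replicates, peak thresholds and overlap. The planned motif search over stop codon peaks needs a genome and was not run.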

Additional observations from a re-analysis of the deposited data

How the results depend on the processing

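The stop codon share of peaks was 16.1% in the cKO list and 19.7% in the cHet list at an enrichment of at least 1, and 26.2% (3725 peaks) in cKO and 32.1% in cHet at at least 2. It was 15.8% in cKO and 19.9% in cHet at an adjusted p of at most 0.001, and 26.1% (4331 peaks) in cKO and 34.5% in cHet with only the highest peak of each gene. Requiring 50% of both peaks to be shared left 66.4% of cKO and 60.6% of cHet stop codon peaks overlapped, with a median difference of -0.49. At an enrichment of at least 1 in both lists 79.7% of cHet peaks were overlapped, and on genes of at least 5 FPKM 89.6% of cKO and 82.7% of cHet peaks. The median of the other markers at a cHet enrichment of at least 2.5, a range chosen after seeing the data, was 0.19.

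The replicate numbers did not pair the samples (correlations of same-numbered samples -0.084, 0.0399 and -0.196). With the replicate block, 1090 genes with a stop codon peak were higher and 645 lower, 848 and 479 of them with a peak in both lists, 41 and 99 in the cKO list only, 201 and 67 in the cHet list only. Under this block the lowest bin of cHet enrichment had 101 higher and 204 lower, and the highest 89 lower.

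With the same FPKM sum, 680 genes with a stop codon peak were lower, 495 with both peaks, 125 higher and 114 lower with a cKO peak only, and 71 lower with a cHet peak only. The lowest bin then had 346 higher and 214 lower, and the highest 92 lower. Over all genes that scaling called 3898 higher and 1390 lower, and centring on the median 2222 higher and 2893 lower. On genes of at least 5 FPKM, 43 were higher with a cKO peak only, 203 higher and 74 lower with a cHet peak only, 76 lower in the highest bin and 123 higher in the lowest, where no filter gave 121. Counting a peak of any annotation as present left 16 higher and 55 lower with a cKO peak only, and 58 higher and 31 lower with a cHet peak only; the cause of these moves, beyond the smaller number of genes, was not tested.

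Leaving out 1 library at a time gave 1073 to 1690 higher and 642 to 1162 lower genes with a stop codon peak, 843 to 1285 and 471 to 870 with both peaks, 37 to 86 and 101 to 180 with a cKO peak only, and 193 to 319 and 70 to 112 with a cHet peak only. It gave 484 to 671 higher and 86 to 141 lower in the highest bin, and 101 to 191 higher and 205 to 389 lower in the lowest. All these lowest counts were without cHet replicate 2. Of 727 combinations of a named gene and a setting, 680 kept their side of the threshold, 37 lost a call, 10 gained one and 0 reversed. The depth of the IP libraries behind each enrichment is not known.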
